A study of Mus musculus with 7 samples.

Results

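Wnt10a and Wnt10b, a pair of related genes for secreted Wnt ligands, were chosen by their symbols in the deposited table, in which they are 2 of 752 genes. RNA was measured in splenic B cells in 4 wild-type and 3 Batf KO libraries, all on the C57BL/6J strain background. Each library was treated as its own mouse. The cells had been isolated on MACS (magnetic) columns, and cells of both genotypes were activated for 6 h with lipopolysaccharide (LPS, 20 µg/mL) and IL-4 (20 ng/mL). Each library was sequenced as paired ends. The labels do not give the age or sex of the mice or the kind of Batf allele. The series title names Wnt10a, Nfil3 and Mir155hg as genes regulated by BATF, an AP-1 family transcription factor, in antibody class switching. The genotypes were compared to ask how far the amounts of these transcripts depend on Batf early in activation.

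Wnt proteins are lipid-modified ligands that bind Frizzled receptors and the co-receptors LRP5 and LRP6. In the best known branch of the pathway this binding stabilises beta-catenin, which enters the nucleus and activates genes together with TCF and LEF factors. WNT10A is known for its part in tooth, hair and skin development, and WNT10B for promoting bone formation and restraining fat cell formation. LPS is the bacterial ligand of TLR4, and with IL-4 it drives mouse B cells to divide and to switch antibody class.

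The deposited table holds only genes that passed the authors' own test between these same libraries, with a false discovery rate (FDR) under 0.05. They make up 3.81% of the 19734 genes the authors tested, and genes higher in Batf KO make up 1.95%. Both Wnt10 genes were therefore certain to show a difference, and the tests given for them here describe its size and spread and are not independent evidence. Size and spread are themselves subject to this selection. The SE in these tests also draws on the spread of other genes of the table, which were selected in the same way. Genes outside the table have no value here.

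Effective library sizes (the totals behind the deposited CPM, which are counts scaled to a common library total) ran from 23675459 to 30844920 reads in Batf KO and from 24891094 to 44728937 reads in wild type. Batf was lower in each Batf KO library, at 63.4 to 70.3 CPM against 306.7 to 333 CPM in wild type, in the direction of the labels. Wild-type libraries were alike in pairs: a chi-square test of the counts gave a statistic per degree of freedom of 18.5 for replicates 1 and 2 and 20.8 for replicates 3 and 4, against 33.3 to 49.8 for the other wild-type pairs. Batf KO replicate 1 alone had reads of the Y chromosome gene Usp9y, at 2.33 CPM. Results for the Wnt10 genes are given below with and without these libraries. Of 51 markers of B cells and other spleen cells, 5 (9.80%) are in the table, and all 5 were higher in Batf KO, beside 3.81% of all genes the authors tested that are listed and 1.95% that are listed as higher. They are the B cell genes Ms4a1 and Blk, Cd8b1 of T cells, Zbtb46 of myeloid cells and Pf4 of platelets. These are 2 of 12 B cell markers and 1 of 12 markers of T and natural killer cells. Myeloid cells gave 1 of 10 markers, and erythroid cells and platelets gave 1 of 9. None of 8 stromal and endothelial markers is listed. The listed markers summed to 1032 to 1103 CPM in Batf KO and 674 to 745 CPM in wild type. Most of this sum is the B cell gene Ms4a1, with means of 879 CPM in Batf KO and 580 CPM in wild type. No listed marker was at 0 in all libraries, as passing the authors' test requires. The level of Cd8b1 was 5.24 to 7.42 CPM in Batf KO and 1.48 to 2.59 CPM in wild type, and that of Pf4 was 0.760 to 1.04 CPM and 0.281 to 0.627 CPM. Their part in the Wnt10 results was not tested. More cells of a type and more RNA per cell cannot be told apart in such bulk samples.

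Wnt10a (ENSMUSG00000026167) lies on chromosome 1 from 74791516 to 74804179 on the plus strand, and Wnt10b (ENSMUSG00000022996) on chromosome 15 from 98770712 to 98778150 on the minus strand, in the GRCm38 assembly (also called mm10). The longest coding transcript of each has 4 exons in GENCODE M21. Its coding part is 1251 bases long for Wnt10a and 1167 bases for Wnt10b. The annotation gives 2 transcripts for Wnt10a and 7 for Wnt10b, and the counts per gene do not separate them. No other annotated gene overlaps either one. No stretch of 25 bases is shared between the transcripts of Wnt10a and Wnt10b, or between either of them and 18 annotated Wnt genes (the other Wnt10 gene among them).

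Wnt10b differs between wild-type and Batf KO libraries, and BATF belongs to the AP-1 family. The sequence before the start of Wnt10b is shown so that the AP-1 motif can be searched for in it. It covers chr15:98778207-98778400 on the minus strand (RefSeq, GRCm38.p6), 194 bases that end next to the outermost start of a Wnt10b transcript in RefSeq, at 98778206, which lies upstream of the GENCODE start at 98778150. The window is written 5′ to 3′ in the direction of transcription. The capitals mark the letters TGAGT, a part of the AP-1 motif.
Wnt10b upstream: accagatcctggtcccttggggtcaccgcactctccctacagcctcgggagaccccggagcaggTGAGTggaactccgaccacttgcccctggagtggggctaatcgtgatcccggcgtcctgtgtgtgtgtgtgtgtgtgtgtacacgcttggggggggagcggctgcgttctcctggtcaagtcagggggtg

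The whole AP-1 motif TGANTCA had no match on either strand of this window, and 5.36% of 32851 promoter windows of the same length held it. Composite elements, in which an IRF motif stands beside the AP-1 motif, were searched for as GAAA directly before TGANTCA and as TTTC with 4 bases between. Both forms contain the whole AP-1 motif, so neither could match in this window. Each was found in 0.0731% of all windows. Composite elements with another form of the AP-1 motif were not searched for. The core of the TCF and LEF motif, CTTTGA, also had no match, with 11.5% of windows holding it. The shorter TGAGT, which was looked for after the whole motif had not been found, matched once, and 32% of all windows hold it. Of the bases in the Wnt10b window, 63.9% are G or C, against a median of 51.5% over all windows. For Wnt10a no promoter sequence was used here.

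Wnt10a, the ligand named in the series title, was higher in Batf KO. Its counts were 463, 420 and 315 reads in Batf KO replicates 1 to 3, or 15.0, 15.6 and 13.3 CPM. In wild-type replicates 1 to 4 they were 187, 171, 238 and 125 reads, or 4.69, 5.68, 5.32 and 5.02 CPM. The groups did not overlap: the lowest Batf KO library lay 2.34-fold above the highest wild-type library. The mean was 14.6 ± 1.19 CPM (SD, n = 3) in Batf KO and 5.18 ± 0.42 CPM (SD, n = 4) in wild type. The log2 fold change was 1.50 (SE 0.12), an increase of 2.83-fold, with edgeR's quasi-likelihood test giving an adjusted p of 2.24e-05 over the 667 fitted genes of the table. When adjusted over all 19734 genes the authors tested, the edgeR p was 0.000664. A permutation test of the mean CPM, exact and two-sided, gave p = 0.0286, the smallest that the 35 splits of 7 libraries allow.

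Wnt10b was the more abundant transcript of the pair and rose by a smaller factor. Batf KO replicates 1 to 3 had 1170, 1050 and 986 reads, or 37.9, 39.0 and 41.6 CPM. Wild-type replicates 1 to 4 had 899, 724, 1095 and 592 reads, or 22.6, 24.1, 24.5 and 23.8 CPM. The groups again did not overlap, with the lowest Batf KO library 1.55-fold above the highest wild-type library. Means were 39.5 ± 1.92 CPM (SD, n = 3) in Batf KO and 23.7 ± 0.83 CPM (SD, n = 4) in wild type. The log2 fold change was 0.74 (SE 0.08), an increase of 1.67-fold, and edgeR's quasi-likelihood test gave an adjusted p of 7.51e-05. The edgeR p adjusted over all genes the authors tested was 0.00222, and the exact permutation p was 0.0286. Of the 667 fitted genes, 50.8% were called higher in Batf KO in the first of these adjustments and 20.1% in the second, and in 47.5% each Batf KO library lay above each wild-type library.

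**Figure D1:**
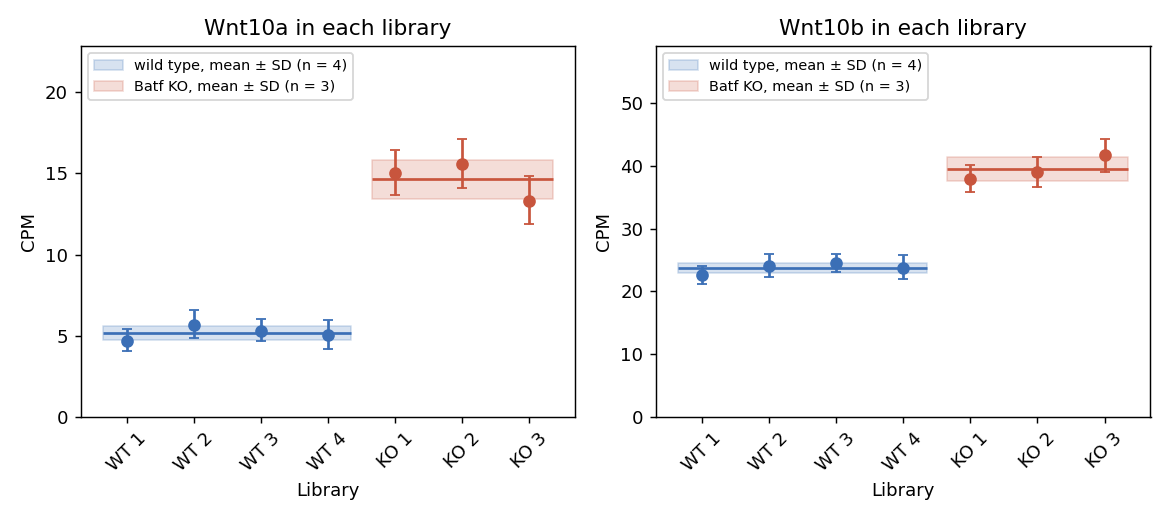
Wnt10a (left) and Wnt10b (right) in CPM in each of the 4 wild-type (WT, blue) and 3 Batf KO (KO, red) libraries. Bars on the points are exact 95% counting intervals, and lines with bands are the group mean ± SD; the Batf KO libraries sit at 13.3 to 15.6 CPM for Wnt10a and 37.9 to 41.6 CPM for Wnt10b, above all wild-type libraries.

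Both increases were still seen when the libraries that stood apart were left out. Without Batf KO replicate 1, the library with Usp9y reads, the log2 fold change was 1.48 for Wnt10a and 0.76 for Wnt10b. Against wild-type replicates 1 and 2 alone it was 1.50 and 0.76, and against replicates 3 and 4 alone 1.50 and 0.71. Each of these values passed the threshold in edgeR's quasi-likelihood test, with a highest adjusted p of 0.000719. Passing is not particular to this pair: 626 of the 667 fitted genes were called with each library left out in turn.

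In wild type, the spread of both genes between libraries was close to that of counting alone. The SD of Wnt10a was 0.42 CPM, and counting error alone gives 0.40 CPM. For Wnt10b these values were 0.83 and 0.85 CPM. In Batf KO the SD was larger than the counting error for both genes, at 1.19 against 0.74 CPM for Wnt10a and 1.92 against 1.22 CPM for Wnt10b. Batf KO replicate 3 had the lowest Wnt10a and the highest Wnt10b of its group.

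Among the listed genes, Wnt10a stood nearer to the top by size of change than Wnt10b. In the authors' deposited table it has the rank 36 by p-value, and Wnt10b has the rank 84. By the log2 fold change in the same table, Wnt10a ranks 14 among the 339 genes with a mean of at least 1 CPM that were higher in Batf KO, and Wnt10b ranks 121. The median increase of those 339 genes in the authors' deposited table is 1.51-fold. The other genes of the series title moved the opposite way: Nfil3, a basic leucine zipper repressor, fell 3.31-fold in the edgeR fit, and Mir155hg, the host transcript of miR-155, fell 1.37-fold. The log2 fold change of Mir155hg was -0.30 against wild-type replicates 1 and 2 alone and -0.60 against replicates 3 and 4 alone. The call for Mir155hg was lost in the adjustment over all genes the authors tested, with an edgeR adjusted p of 0.0660.

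Levels of the pair were compared per length of annotated exons, which cover 2.468 kb for Wnt10a and 3.401 kb for Wnt10b. Wnt10a was at 2.10 ± 0.17 CPM per kb (SD, n = 4) in wild type and 5.93 ± 0.48 CPM per kb (SD, n = 3) in Batf KO. Wnt10b was at 6.97 ± 0.24 CPM per kb (SD, n = 4) and 11.6 ± 0.56 CPM per kb (SD, n = 3). Wnt10b was thus the higher of the pair in all 7 libraries, and the ratio of its level per kb to that of Wnt10a was 3.07 to 3.49 in wild type and 1.81 to 2.27 in Batf KO. With the longest coding transcript as the length, this ratio was 3.86 to 4.38 and 2.28 to 2.85.

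The pair did not rise in proportion. Wnt10a made up 17.2%, 19.1%, 17.9% and 17.4% of the reads of both genes in wild-type replicates 1 to 4, and 28.4%, 28.6% and 24.2% in Batf KO replicates 1 to 3. The share was higher in each Batf KO library than in each wild-type library. The 95% Wilson interval of Batf KO replicate 3, 22.0% to 26.6%, lay above the highest upper bound in wild type, 21.8%. The log2 ratio of Wnt10a to Wnt10b (in CPM) was higher by 0.76 (SE 0.11) in Batf KO, which is 1.70-fold. For this difference the same exact permutation test gave p = 0.0286, the smallest that the design allows. Because both genes were taken from a table selected on the same libraries, this test is a description of them.

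**Figure D2:**
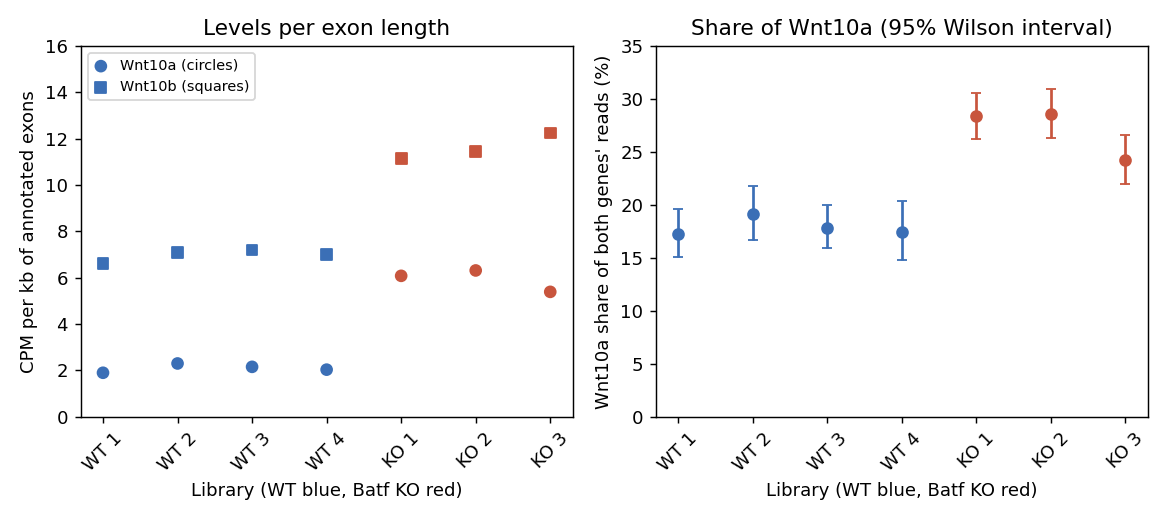
Left, the level of Wnt10a (circles) and Wnt10b (squares) in CPM per kb of annotated exons in each wild-type (blue) and Batf KO (red) library. Right, the share of Wnt10a in the reads of both genes with its 95% Wilson interval, which is 17.2% to 19.1% in wild type and 24.2% to 28.6% in Batf KO.

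Of 112 genes of the Wnt pathway, 6 are in the table, including Wnt10a and Wnt10b, which were taken from it. Without this pair 4 of 110 genes (3.64%) are listed, near the 3.81% of all genes tested by the authors. Of these 4, 3 were higher in Batf KO and 1 was lower. The ligands gave 2 of 19 genes, the Wnt10 pair. None of the 4 genes for ligand processing and secretion is listed, and likewise none of 16 receptors and co-receptors, 9 genes of the R-spondin branch, 11 secreted inhibitors and 29 cytoplasmic transducers. Axin2, a feedback inhibitor induced by beta-catenin, is among the transducers that are not listed. A gene that is not listed did not pass the authors' threshold, and whether it was expressed is not known here. The median log2 fold change of the 4 listed genes other than the Wnt10 pair is 0.75 in the authors' deposited table, and that of all 752 listed genes is 0.31. The second median mixes 384 higher and 368 lower genes, and the 384 higher genes alone have a median of 0.64. A median over so few pathway genes is not a result about the pathway.

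Among the nuclear factors of the pathway, 1 of 13 is listed (7.69%), beside 3.81% of all genes the authors tested. Bcl9l, a coactivator that binds beta-catenin, was at 61.1, 80.9 and 80.5 CPM in Batf KO replicates 1 to 3 and at 41.5 to 53.3 CPM in wild type. Its groups did not overlap, and replicate 1 was the lowest Batf KO library. It rose 1.56-fold (log2 fold change 0.64, SE 0.12), and edgeR's quasi-likelihood test gave an adjusted p of 0.00151 over the table and 0.0446 over all genes the authors tested.

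Of 11 genes widely used as targets of the pathway, 3 are listed (27.3%), 2 higher and 1 lower in Batf KO. The share over all genes the authors tested is 3.81%, with 1.95% listed as higher. The difference rests on 3 genes and was not tested. Tnfrsf19, which encodes a receptor of the tumour necrosis factor receptor superfamily, had 109, 87 and 88 reads in Batf KO (3.23 to 3.72 CPM) and 37 to 61 reads in wild type (0.928 to 1.49 CPM). It rose 2.70-fold (log2 fold change 1.43, SE 0.20). Jun, an AP-1 subunit that also pairs with BATF, was at 239 to 276 CPM in Batf KO and 120 to 162 CPM in wild type and rose 1.81-fold. Within wild type, Jun was at 160 and 162 CPM in replicates 1 and 2 and at 120 and 124 CPM in replicates 3 and 4. Id2, an inhibitor of basic helix-loop-helix factors, was lower, at 16.9 to 21.0 CPM in Batf KO and 25.8 to 34.2 CPM in wild type. Its edgeR adjusted p was 0.00257 over the table and 0.0759 over all genes the authors tested. Under that wider adjustment 3 of the 4 listed pathway genes other than the Wnt10 pair passed, all but Id2, as did 42.9% of the 667 fitted genes.

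**Figure D3:**
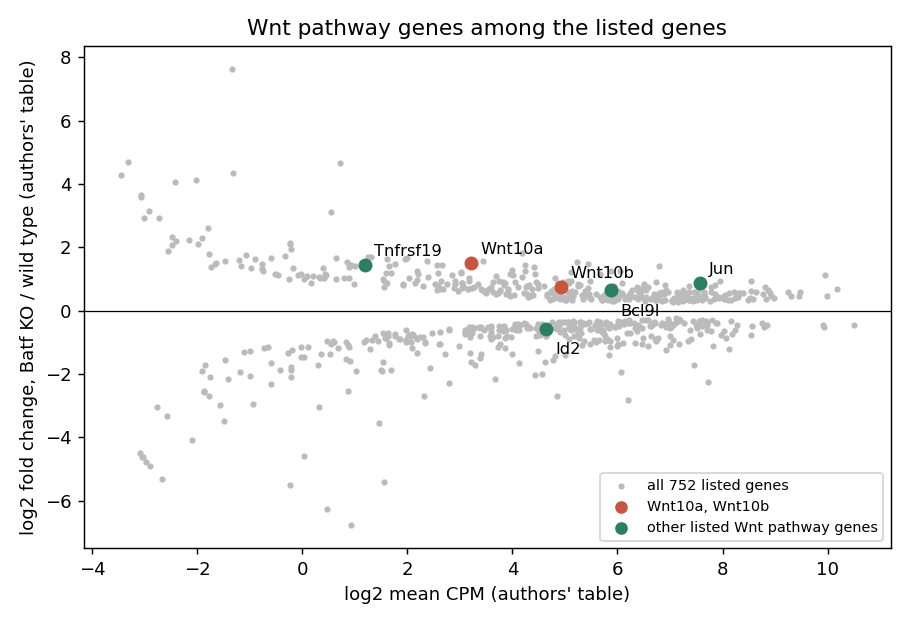
Log2 fold change (Batf KO over wild type) against log2 mean CPM for all 752 genes of the authors' deposited table (grey), with Wnt10a and Wnt10b in red and the other 4 listed Wnt pathway genes in green. The gap around 0 comes from the authors' threshold; Id2 is the labelled gene below 0.

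Each Wnt10 gene has another Wnt gene as its neighbour. Wnt6 starts 19.62 kb upstream of the start of Wnt10a on the same strand, and Wnt1 starts 11.71 kb upstream of the start of Wnt10b on the other strand. Neither Wnt6 nor Wnt1 is in the table. Within 500 kb of the start of Wnt10a, none of 51 other annotated genes is listed, of which 36 are protein-coding. Around Wnt10b 1 of 62 other genes is listed, with 37 of them protein-coding. The share of all genes the authors tested that are listed is 3.81%, so neither count is a result about the neighbours. The listed neighbour is Rnd1, whose start lies 100.69 kb away. Rnd1 had 67 reads in the 3 Batf KO libraries and 47 in the 4 wild-type libraries, at 0.465 to 1.04 CPM and 0.224 to 0.426 CPM. It was below the filter of a mean of 1 CPM and was not tested here, and the authors' deposited table gives it a log2 fold change of 1.24 with an FDR of 0.0357.

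**Figure D4:**
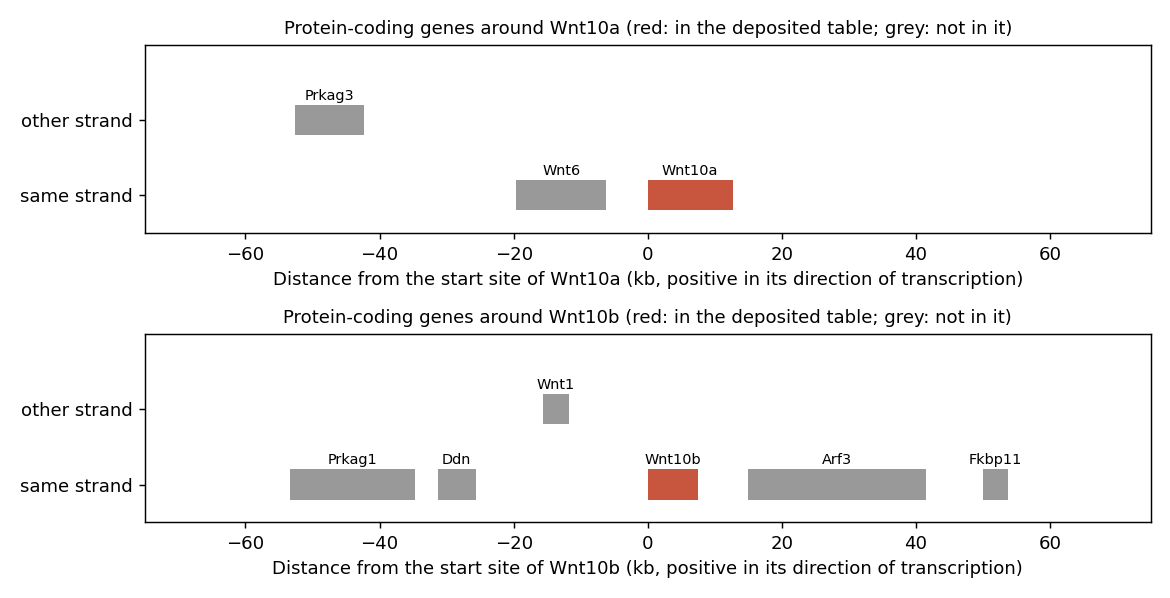
Protein-coding genes near Wnt10a (top) and Wnt10b (bottom), drawn to scale by distance in kb from the start site, with genes of the same strand in the lower row of each map. Red genes are in the deposited table and grey genes are not; the neighbouring Wnt6 and Wnt1 are grey.

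The pattern of each ligand over the 7 libraries was set beside that of the other 666 fitted genes, as Pearson's r of log2(CPM + 0.5). These values are descriptions: the points share libraries and the table was selected on the genotype, so 25.8% of the genes had r over 0.9 with Wnt10a and 21.0% with Wnt10b. Wnt10a and Wnt10b had r = 0.98 with each other, which placed Wnt10b at rank 22 for Wnt10a and Wnt10a at rank 10 for Wnt10b. After each group's mean was taken away, r between them was -0.022.

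The genes most like Wnt10a were Peli1, a ubiquitin ligase gene of Toll-like receptor signalling, Tnfrsf1b, a receptor gene for tumour necrosis factor, Ccr7, a chemokine receptor gene, Ggps1, an enzyme gene of isoprenoid synthesis, and the 5S ribosomal RNA gene n-R5s64, with r of 0.989 to 0.994. The first 4 rose by between 1.30-fold (Ggps1) and 1.61-fold (Ccr7), beside 2.83-fold for Wnt10a. The genes most like Wnt10b were n-R5s64, the processed pseudogene Gm14269, the semaphorin gene Sema7a, Fam160a2 and the formin gene Fmnl2, with r of 0.985 to 0.996. Of these, Sema7a was at 342 ± 3.42 CPM (SD, n = 3) in Batf KO and 179 ± 8.04 CPM (SD, n = 4) in wild type, and Fmnl2 at 29.8 ± 0.13 CPM (SD, n = 3) and 10.9 ± 1.25 CPM (SD, n = 4). n-R5s64 rose 25.5-fold in the edgeR fit, with 292 reads in the 3 Batf KO libraries and only 19 reads in the 4 wild-type libraries. Gm14269 did not pass over all genes the authors tested (edgeR adjusted p = 0.0654), and as a processed pseudogene it may share reads with its parent gene.

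**Figure D5:**
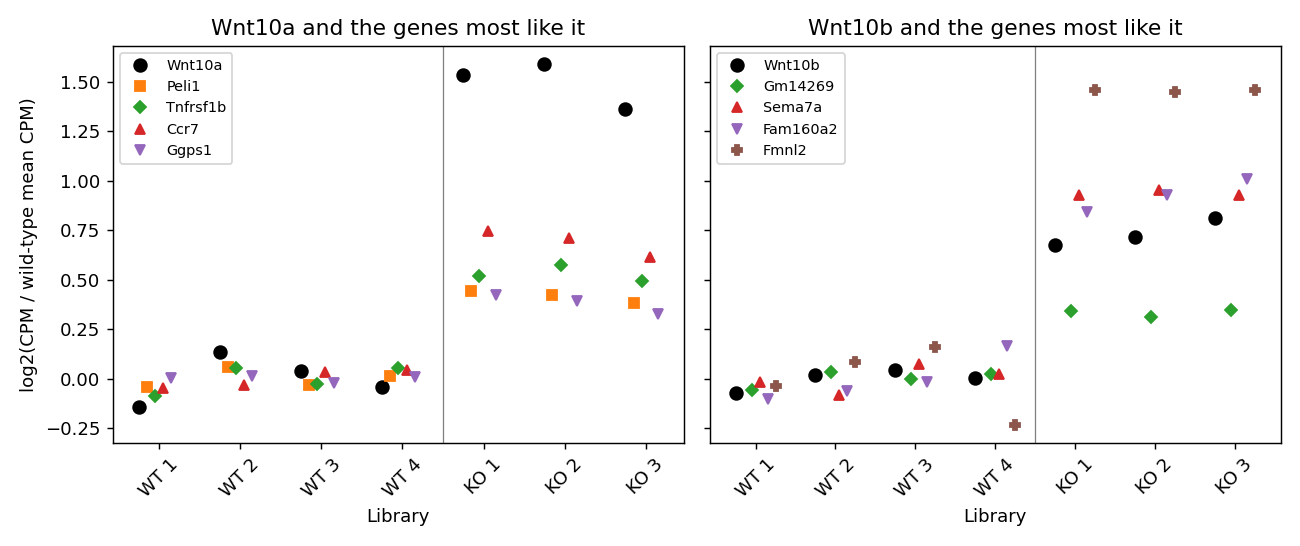
Wnt10a (left, black) and Wnt10b (right, black) with the genes most like each, as log2 of CPM over the wild-type mean in each wild-type (WT) and Batf KO (KO) library; n-R5s64 is left out for its few wild-type reads. The black points of Wnt10a lie above its 4 companions in Batf KO, whereas those of Wnt10b lie between Gm14269 and Fmnl2.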

How the data were processed

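Tools named in the submitters' processing notes, with no role, are HTSeq 0.5.3p7, TopHat2 2.0.6 and edgeR 3.03, and the build is mm10. No source used here gives the annotation, the strand setting or the handling of reads with several matches. Per the file headers, the deposited table gives read counts per gene and the CPM the authors made from them. It also holds the authors' log2 fold change, log2 mean CPM, likelihood ratio (a score), p-value and FDR, per the file headers.

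The number of genes the authors tested was recovered from FDR and p-value, and effective library sizes as count over CPM. Counts were tested with edgeR 4.0.16 in R 4.3.3 (quasi-likelihood test, two-sided, Benjamini-Hochberg over 667 genes with mean CPM 1 or higher; 85 fell below). The step was tested on simulated counts. SE is the log2 fold change over the square root of F. Permutation tests used scipy 1.17.1 and the absolute difference of means. Alternatives used DESeq2 1.42.0 and limma 3.58.1. Counting and Wilson intervals cover counting error only.

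Groups come from the genotype label and replicate numbers from accession order. Nothing beyond the mouse numbers in the titles says how libraries relate. The design text also speaks of 2 replicates per sample, whose meaning is not given, and p-values measure the spread between these libraries, which may in part be technical. Named genes were the Wnt10 pair, listed Wnt pathway genes, Batf, the title genes, the 5 genes with the highest r for each ligand, and listed genes within 500 kb. Listed cell type markers are also named, and Usp9y was chosen after its values were seen. The members and lists were chosen with earlier results of these data known. In 24 sets of 4 wild-type values, no library stood apart by Dixon's test, where chance gives about 1.2. Dixon's test looks for a lone value, so it cannot show libraries that are alike in pairs. Batf KO libraries were not covered by it.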

Additional observations from a re-analysis of the deposited data

How the results depend on the processing

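Wnt10a and Wnt10b were higher in Batf KO and passed the threshold under each alternative run. Such calls are common in a table selected on the same libraries. With each library left out in turn, 626 of the 667 fitted genes were called. The log2 fold changes of Wnt10a and Wnt10b ran from 1.34 (limma with a pseudocount of 1 CPM) to 1.50 and from 0.68 (TMM factors computed on the table) to 0.76. With 1 library left out they ran from 1.45 to 1.56 and from 0.70 to 0.76, with edgeR adjusted p of 4.78e-05 to 0.000265 and of 0.000246 to 0.000676. The differences of mean CPM were then 8.98 to 10.1 for Wnt10a and 14.7 to 16.6 for Wnt10b, an alternative chosen after seeing the data. The difference in the log2 ratio of Wnt10a to Wnt10b was 0.71 to 0.87 with 1 library left out (0.87 when this was Batf KO replicate 3) and 0.69 to 0.79 otherwise. Designs with fewer libraries cannot reach a permutation p under 0.05, so these are values with no test. Adjustment over all 19734 genes, which is stricter by construction, left 134 of 339 higher and 152 of 328 lower genes. They were 322 to 340 and 327 to 332 with 1 library left out. Mir155hg, Id2, Gm14269 and Zbtb46 lost their call in that adjustment and under no other alternative run. No paired analysis was run because no label pairs a Batf KO library with a wild-type library. Depth limits Rnd1, Pf4 and the wild-type level of n-R5s64.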
